A study of Mus musculus with 7 samples.

Results

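The messenger RNAs of 10 genes at the transcriptional end of the Hippo pathway were followed in mouse surface ectoderm with and without the microRNA miR-205. The genes encode the coactivators YAP (Yap1) and TAZ (Wwtr1), the TEAD DNA-binding factors (Tead1, Tead2, Tead3 and Tead4), the angiomotins (Amot, Amotl1 and Amotl2) and the target gene Ctgf. They were chosen by name, among 47729 listed genes. The table holds 11 entries under these names, because Tead2 appears under 2 identifiers, of which ENSMUSG00000109470 had 0 reads in every library. The other 10 entries all passed the filter of a mean of at least 10 normalized counts and were among the 15029 genes tested.

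The tissue came from embryos at E12.5, from the ectoderm between eye and brain, and was cut by laser from stained frozen sections. The study compared 4 libraries from miR-205 knockout embryos (replicates 1 to 4) with 3 libraries from wild type embryos (replicates 2 to 4), each library made from 3 pooled embryos. A wild type sample numbered 1 was dropped by the submitters because of tissue from outside the ectoderm, seen in low Pax6 and Krt5, and is not analysed here. The labels give no further detail of the knockout allele, the strain or the litters, so p-values measure the spread between these pools. The series addresses the development of the lacrimal gland, the tear gland, which buds from this epithelium.

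Whole reads could be recovered from the deposited values, and libraries held between 8903523 and 12504790 reads. Mir205 itself had 0 reads in all 7 libraries, so the knockout could not be checked from its own counts. The transcript 4631405K08Rik at the same locus had 2194, 2037, 3959 and 3346 normalized counts in knockout replicates 1 to 4, against 664, 1881 and 1713 in wild type replicates 2 to 4. All 13 markers of surface ectoderm and basal epithelium were detected in every library and all 13 had a lower fitted value in knockout. Their summed level was 24978, 26269, 40717 and 34679 normalized counts in knockout replicates 1 to 4, against 36156, 39257 and 45694 in wild type replicates 2 to 4. Mesenchyme markers summed to 35010, 31651, 22319 and 22741 in the same knockout libraries, against 20554, 21084 and 23737 in wild type. Neuronal markers summed to between 6776 and 11762 in knockout and between 2443 and 7926 in wild type, with all 10 higher. All 8 macrophage markers were also higher and all 7 erythroid markers lower, with overlapping sums, as were those of Schwann and melanocyte precursors and of muscle. Knockout replicates 1 and 2 stood apart, lowest for ectoderm and highest for mesenchyme. Differences that moved most without them are given both ways.

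In the Hippo pathway a chain of kinases phosphorylates YAP and TAZ and keeps them in the cytoplasm. When the kinases are quiet, both enter the nucleus, bind TEAD factors and switch on genes of growth and matrix, Ctgf being the most used readout. Angiomotins bind YAP and TAZ at junctions and actin filaments, and in epithelia the pathway couples proliferation to cell shape and contact. A microRNA lowers messages by pairing of its seed, the bases near its 5′ end, with their 3′ UTRs.

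The sequence of mature miR-205-5p is shown first, because its seed decides which of these genes carry a site. It is encoded at chr1:193507503-193507524 on the minus strand (RefSeq, GRCm38.p6), and capitals mark bases 2 to 8.
mmu-miR-205-5p: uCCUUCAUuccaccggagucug

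A match to these bases, ATGAAGG in the message, was found in the longest annotated 3′ UTR of a protein-coding transcript (GENCODE M21, GRCm38) in 2 of the 10 genes, Amot and Tead1. Over all tested genes with such a 3′ UTR, 12.4% of 13541 had one. The 3′ UTR of Tead1 is 8147 nt long and that of Amot 3576 nt, against a median of 1239 nt. Among the 2249 tested genes with at least 3000 nt, a length set after the values were seen, 30.3% had a match. The 3 sites are printed 5′ to 3′ on the message strand, with the seed match in capitals. The first Tead1 site is an 8mer, a seed match followed by A, at chr7:112901453-112901480 on the plus strand. The second is at chr7:112905402-112905428 on the plus strand. The Amot site is at chrX:145447109-145447135 on the minus strand, and both of these are 7mers.
Tead1 site 1: ttgatacagagaccATGAAGGAgtgcta
Tead1 site 2: ttatatcttttaaaATGAAGGtttttg
Amot site: tgactgttgtcttaATGAAGGttttaa

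TEAD factors bind the short motif GGAATG, or CATTCC on the other strand. RefSeq promoter windows, from 250 bases before to 50 after a gene's start, were at hand for 7 of the 10 genes, all but Ctgf, Tead1 and Tead4. The motif stood in the windows of Yap1, Wwtr1, Tead3 and Amotl2, 4 of those 7, against 16.6% of all 27025 genes with a window. Both strands were searched and no mismatch was allowed. It was not found in those of Amot, Amotl1 and Tead2. A letter match is no evidence of binding, and binding was not measured. The stretches below (GRCm38.p6) show the motif in capitals, on the strand of the gene. They lie at chr9:8004720-8004749 for Yap1 (minus strand), chr3:57576029-57576058 for Wwtr1 (minus strand), chr17:28350706-28350735 for Tead3 (minus strand, where 2 matches stand side by side) and chr9:102717727-102717756 for Amotl2 (plus strand).
Yap1 promoter: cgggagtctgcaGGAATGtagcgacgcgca
Wwtr1 promoter: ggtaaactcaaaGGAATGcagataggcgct
Tead3 promoter: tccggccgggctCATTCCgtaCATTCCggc
Amotl2 promoter: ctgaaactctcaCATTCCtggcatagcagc

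Across the group, Amot and Ctgf had higher values in knockout, with no overlap between the groups. Tead1 had a lower mean in knockout, but its groups overlapped. They also overlapped for both coactivators and for Tead2, the most abundant TEAD factor. By limma-trend on log2(normalized count + 1), with a threshold of 0.1 for the adjusted p, 0 of the 10 genes were called, against 0.0% of all tested genes. Without adjustment, 2 had a p under 0.05 with higher values in knockout (Amot and Ctgf), against 5.44% of all tested genes, and 1 with lower values (Tead1), against 4.34%. In 2 of the 10, Amot and Ctgf, every knockout library lay above every wild type library, a pattern of 4.7% of all tested genes. No gene of the 10 had every knockout library below every wild type library, a pattern of 5.22% of all tested genes. The median log2 difference of the 10 genes was -0.07, with 4 higher and 6 lower, and that of all tested genes was 0.01. By edgeR's quasi-likelihood test on recovered reads 0 of the 10 passed and 3 had an unadjusted p under 0.05. Of all 15029 tested genes that test called 0, and 1418 had such an unadjusted p. DESeq2 on the same reads also called 0 of the 10, while it called 0.748% of genes higher and 0.768% lower.

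**Figure D1:**
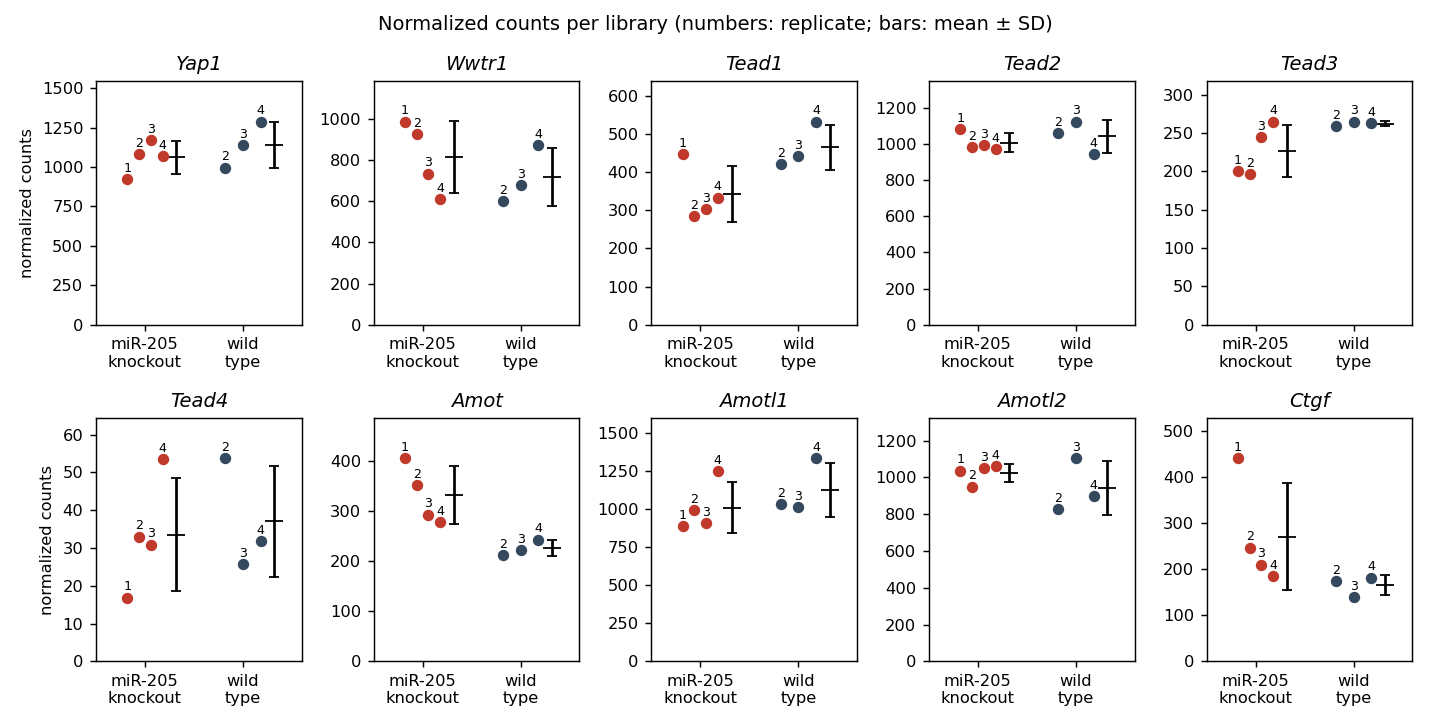
Normalized counts (y axis, from 0) of each of the 10 genes in the 4 miR-205 knockout libraries (red, left) and the 3 wild type libraries (dark, right), with the replicate number over each point and the mean ± SD beside each group. Groups do not overlap for Amot and Ctgf, with all 4 knockout libraries above all 3 wild type libraries, and overlap for the other 8 genes. Of all tested genes, 4.7% had every knockout library above every wild type library.

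Gene positions are given on GRCm38. Yap1, on chromosome 9 from 7931999 to 8004596 (minus strand), encodes YAP, the coactivator that the Hippo kinases hold in check. It had 923, 1082, 1170 and 1069 normalized counts in knockout replicates 1 to 4, against 996, 1139 and 1288 in wild type replicates 2 to 4. The groups overlapped, with knockout replicate 1 lowest and wild type replicate 4 highest. The means were 1061 ± 102 in knockout (SD, n = 4) and 1141 ± 146 in wild type (SD, n = 3), a log2 difference of -0.10 (SE 0.11, limma-trend adjusted p 0.771). The 95% interval of the difference, -0.35 to 0.15, leaves room for knockout levels between 0.783 and 1.11 times wild type.

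Wwtr1, on chromosome 3 from 57455649 to 57575910 (minus strand), encodes TAZ, which shares YAP's partners. It had 988, 929, 735 and 611 normalized counts in knockout, against 601, 680 and 875 in wild type. Knockout replicates 1 and 2 lay above every wild type library, and replicates 3 and 4 fell within the wild type range. The log2 difference was 0.18 (SE 0.19, limma-trend adjusted p 0.766), and without knockout replicates 1 and 2 it was -0.08, with its direction turned. In bulk tissue, fewer cells of a type and less RNA per cell cannot be told apart.

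Per kilobase of exon, the ratio of Wwtr1 to Yap1 was 2.07, 1.66, 1.22 and 1.11 in knockout replicates 1 to 4, against 1.17, 1.16 and 1.31 in wild type. By this measure Wwtr1 exceeded Yap1 in every library, most so in knockout replicates 1 and 2. The order depends on the lengths used, unions of all annotated exons of 9257 nt for Yap1 and 4779 nt for Wwtr1. Before division by length the means were higher for Yap1, 1061 in knockout and 1141 in wild type, against 816 and 718 for Wwtr1. The sum of both genes per kilobase was 285 ± 31.2 in knockout and 274 ± 45 in wild type (SD, n = 4 and n = 3).

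Tead2 was the TEAD factor with the highest level per length. It lies on chromosome 7 from 45215753 to 45233644 (plus strand) and had 1082, 983, 991 and 971 normalized counts in knockout, against 1058, 1122 and 944 in wild type. These values overlapped and spread little, with 5.04% coefficient of variation in knockout and 8.67% in wild type. The log2 difference was -0.05 (SE 0.09, limma-trend adjusted p 0.88), with a 95% interval of -0.24 to 0.15.

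Tead1, on chromosome 7 from 112679318 to 112906807 (plus strand), encodes a TEAD factor known for its part in heart and muscle and in epidermis. It had 447, 284, 302 and 333 normalized counts in knockout, against 420, 442 and 532 in wild type. Knockout replicates 2, 3 and 4 lay below every wild type library, and replicate 1 lay within the wild type range. The means were 342 ± 73.1 in knockout (SD, n = 4) and 465 ± 59.5 in wild type (SD, n = 3), a log2 difference of -0.46 (SE 0.17, limma-trend unadjusted p 0.0237, adjusted p 0.45). It was -0.54 without knockout replicates 1 and 2 and between -0.59 and -0.36 when any single library was left out.

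Tead1 carries the 2 seed matches shown above, 1 of them an 8mer, and its mean was lower without miR-205. Among the 1681 tested genes with a match, 161 had a higher value in knockout with an unadjusted limma-trend p under 0.05, and 45 had a lower one, Tead1 among them. Among the 603 genes with an 8mer, 203 (33.7%) had a lower value, 10 of them with an unadjusted limma-trend p under 0.05. Over all tested genes, 5.44% were higher and 4.34% lower at that p. At any p, 51.7% of all tested genes had a higher value, against 60.8% of those with a match.

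Tead3, on chromosome 17 from 28331671 to 28350817 (minus strand), encodes a TEAD factor known from placenta. It had 200, 197, 245 and 265 normalized counts in knockout, against 259, 265 and 263 in wild type. Knockout replicates 1, 2 and 3 were lower than each wild type library. Replicate 4 was higher than each, though it and wild type replicate 3 both round to 265. The log2 difference of Tead3 was -0.22 (SE 0.16, limma-trend adjusted p 0.655), and within the libraries of over 10000000 reads, 2 of each genotype, it was -0.05. Without knockout replicates 1 and 2, which the depth limit also leaves out, it was -0.04.

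Tead4, on chromosome 6 from 128224288 to 128300823 (minus strand), encodes the TEAD factor known from the trophectoderm of the early embryo. It was the weakest of the 10, with 15, 30, 35 and 61 reads in knockout, against 44, 30 and 34 in wild type. A count of 15 has a 95% Poisson interval of 8.4 to 24.7 and a count of 61 one of 46.7 to 78.4, for counting error only. Knockout replicates 1 and 4 thus differed beyond counting error within 1 genotype. The log2 difference was -0.18 (SE 0.46, limma-trend adjusted p 0.913) with a 95% interval of -1.21 to 0.84, and the spread between libraries, with a coefficient of variation of 44.8% in knockout and 39.6% in wild type, exceeded the 16.8% and 16.7% from counting in these groups. Its direction turned without knockout replicate 1 (0.10) and without wild type replicate 2 (0.11).

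Per kilobase of exon, Tead2 made up 75.5 ± 2.51% of the summed TEAD messages in knockout and 72.1 ± 2.72% in wild type (SD, n = 4 and n = 3). Tead3 made up 12.1 ± 1.82% in knockout and 13 ± 0.675% in wild type, and Tead1 8.99 ± 1.53% in knockout and 11.4 ± 2.05% in wild type. Tead4 held 3.37 ± 1.5% in knockout and 3.43 ± 1.33% in wild type. The TEAD pool of this tissue was thus mostly Tead2 message in each of the 7 libraries, with shares between 69.3% and 77.6%. The sum of all TEAD messages per kilobase was 279 ± 12.1 in knockout and 301 ± 15.1 in wild type.

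**Figure D2:**
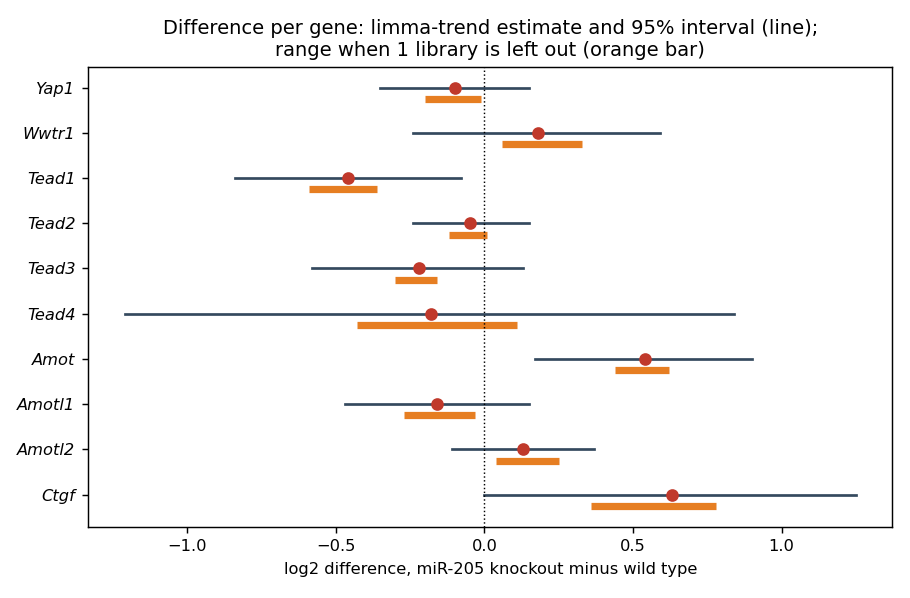
Log2 differences, miR-205 knockout minus wild type (x axis), of the 10 genes by limma-trend (red points) with their 95% intervals (lines); orange bars give the range when any 1 of the 7 libraries is left out. The bars of Amot (0.44 to 0.62), Ctgf, Wwtr1 (0.06 to 0.33) and Amotl2 (0.04 to 0.25) lie above 0, those of Tead1 (-0.59 to -0.36), Tead3, Amotl1 and Yap1 (-0.20 to -0.01) below it, and those of Tead2 and Tead4 cross 0.

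Amot, on chromosome X from 145446425 to 145505181 (minus strand), encodes angiomotin, an actin-binding scaffold of junctions that holds YAP out of the nucleus and was first described in endothelial migration. It had 405, 351, 293 and 278 normalized counts in knockout, against 212, 222 and 243 in wild type. The groups did not overlap, with every knockout value on the upper side, as in 4.7% of all tested genes. The means were 332 ± 57.9 in knockout (SD, n = 4) and 226 ± 15.8 in wild type (SD, n = 3), a log2 difference of 0.54 (SE 0.16), which is 1.45 times with a 95% interval of 1.13 to 1.87.

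Amot had the smallest p of the 10 genes (limma-trend unadjusted p 0.0081, adjusted p 0.39). In the authors' deposited table Amot was listed at a log2 fold change of 0.53 with an adjusted p of 0.0822, under the authors' limit of 0.1. It was the only one of the 10 called there, where Tead4 had no adjusted p. The authors' deposited table called 1.43% of its 11933 genes with an adjusted p higher and 1.4% lower. DESeq2 on recovered reads gave Amot an adjusted p of 0.181, and over all alternatives its adjusted p was between 0.181 and 0.901. Its single seed match, a 7mer, is shown above.

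Without knockout replicates 1 and 2 the log2 difference of Amot was 0.34 (limma-trend adjusted p 0.798). The deeper knockout libraries are replicates 3 and 4, so a split by depth is not separate from leaving out replicates 1 and 2. Within the 4 libraries of over 10000000 reads, 2 of each genotype, the log2 difference was 0.30. Among the 3 shallower libraries, which include only wild type replicate 2, it was 0.82. With the mesenchyme marker score as a covariate, an alternative chosen after seeing the data, it was 0.29 (limma-trend adjusted p 0.853). The knockout libraries with the most Amot, replicates 1 and 2, were also those with the highest mesenchyme sums. The part of cell composition in the difference was not tested.

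Amotl1, on chromosome 9 from 14541966 to 14645056 (minus strand), encodes a junctional relative of angiomotin. It had 886, 993, 906 and 1250 normalized counts in knockout, against 1031, 1013 and 1332 in wild type. Knockout replicates 1, 2 and 3 lay below the wild type libraries and replicate 4 within their range. The log2 difference was -0.16 (SE 0.14, limma-trend adjusted p 0.716). It was -0.03 without wild type replicate 4, which had the highest value.

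Amotl2, on chromosome 9 from 102716672 to 102733418 (plus strand), encodes an angiomotin that is itself a known target of YAP and TEAD. It had 1037, 950, 1049 and 1062 normalized counts in knockout, against 826, 1104 and 898 in wild type. All 4 knockout libraries lay within the wild type range. The log2 difference was 0.13 (SE 0.11, limma-trend adjusted p 0.699), with a 95% interval of -0.11 to 0.37.

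Among angiomotin messages per kilobase, Amot made up 13.1 ± 2.58% in knockout and 9.33 ± 0.539% in wild type (SD, n = 4 and n = 3). The ranges of that share were 10.2% to 16% in knockout and 8.73% to 9.75% in wild type, and did not overlap. Amotl2 made up 53.9 ± 2.6% in knockout and 51.9 ± 5.62% in wild type, so Amot remained the smallest of the 3 in both genotypes. The ratio of Amot to Amotl1 per kilobase was 0.548, 0.423, 0.388 and 0.267 in knockout, against 0.247, 0.262 and 0.219 in wild type.

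Ctgf, listed as Ccn2 in GENCODE M21, lies on chromosome 10 from 24595442 to 24598683 (plus strand) and encodes a secreted matrix protein of the CCN family. It had 441, 247, 210 and 185 normalized counts in knockout, against 175, 140 and 182 in wild type. Again no knockout value fell into the wild type range, though knockout replicate 4 and wild type replicate 4 were close. The means were 271 ± 117 in knockout (SD, n = 4) and 166 ± 22.5 in wild type (SD, n = 3), a log2 difference of 0.63 (SE 0.28, limma-trend unadjusted p 0.0486, adjusted p 0.505). With TMM scaling the unadjusted p was 0.0513.

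The unadjusted limma-trend p of Ctgf was above 0.05 without knockout replicate 1 or 2 or any single wild type library. It was largest, 0.149, without wild type replicate 3. Leaving out 1 library gave a log2 difference between 0.36, without knockout replicate 1, and 0.78. Without knockout replicates 1 and 2 it was 0.26, and with the mesenchyme marker score as a covariate 0.13 (limma-trend adjusted p 0.96; over all alternatives between 0.377 and 0.96). Within the libraries of over 10000000 reads, which also leave out knockout replicates 1 and 2, it was 0.30, and within the others 0.92. Of 9 endothelial markers, 8 had a higher fitted value in knockout, with sums between 754 and 2340 normalized counts in knockout and between 636 and 784 in wild type, and none was at 0 in any library; their part was not tested. In exons, 665 bases of Ctgf overlap Gm15270 on the other strand. Whether reads were counted by strand is not stated in the sources used here. If they were not, reads within the shared bases cannot be assigned to 1 of these 2 genes. Yap1 shares 116 exon bases with Gm20416 and Tead2 shares 13 with Cd37 in the same way.

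**Figure D3:**
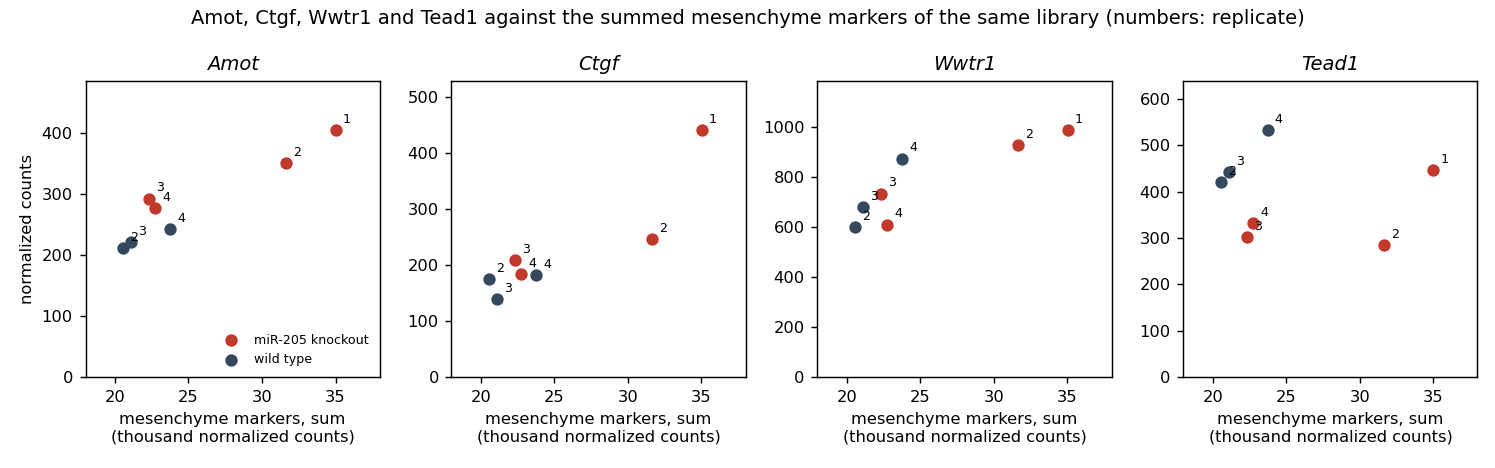
Normalized counts of Amot, Ctgf, Wwtr1 and Tead1 (y axes, from 0) against the summed normalized counts of 11 mesenchyme markers in the same library (x axis, scaled as its label says, not starting at 0); red points are the 4 miR-205 knockout libraries, dark points the 3 wild type libraries, numbers the replicates. Knockout replicates 1 and 2 lie far to the right and are the highest of the 7 for Amot, Ctgf and Wwtr1. For Tead1, knockout replicate 2 (284) is the lowest of the 7 and knockout replicate 1 (447) lies within the wild type range.

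Levels of different genes were compared per kilobase of exon. The lengths are unions of all annotated exons, so the order depends on the annotation. Over the 7 libraries the order was Tead2, Wwtr1, Amotl2, Yap1, Amotl1, Ctgf, Tead3, Amot, Tead1 and Tead4, with means of 213 for Tead2, 162 for Wwtr1, 157 for Amotl2, 118 for Yap1 and 105 for Amotl1 normalized counts per kilobase. Ctgf had 78.9, Tead3 36, Amot 34.1, Tead1 29.1 and Tead4 9.75. Ctgf was above Tead3 with no overlap over the 7 libraries, and so was Tead1 above Tead4. Other neighbours in this order overlapped in range, and Wwtr1 exceeded Amotl2 in 3 libraries of 7. Amot exceeded Tead1 in 4 of 7 libraries, namely the 4 knockout ones, with group means of 39.5 ± 6.89 for Amot and 25.2 ± 5.39 for Tead1 in knockout (SD, n = 4). In wild type they were 26.9 ± 1.88 for Amot and 34.2 ± 4.39 for Tead1 (SD, n = 3).

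**Figure D4:**
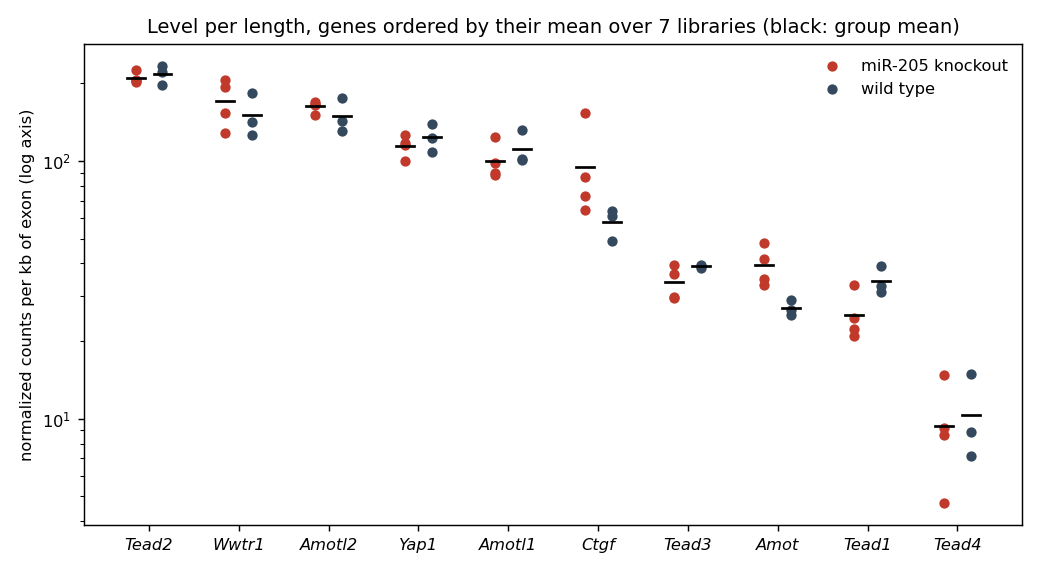
Normalized counts per kilobase of exon (log axis) of the 10 genes in the 4 miR-205 knockout libraries (red, left of each pair) and the 3 wild type libraries (dark, right), ordered by the mean over all 7; black bars are group means. Tead2, with a mean of 213, stands at the top and Tead4, with 9.75, at the bottom, and Amot and Tead1 change places between the genotypes.

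The rest of the pathway was described from gene lists. Of 23 kinases and upstream regulators, all tested, 13 had higher and 10 lower values without miR-205, and the median log2 difference was 0.02. By limma-trend 0 were called, against 0.0% of all tested genes. An unadjusted p under 0.05 with a higher value was reached by 1, against 5.44% of all tested genes. That gene was Dchs1, a large cadherin that signals with Fat4, with 872 ± 88.4 normalized counts in knockout and 665 ± 96.6 in wild type (log2 difference 0.40, SE 0.12, limma-trend adjusted p 0.396). Its groups did not overlap, nor did those of Nf2, named after its values were seen. In these 2 of 23 genes every knockout library lay above every wild type library, as in 4.7% of all tested genes. Lats2, a kinase that phosphorylates YAP and is itself induced by it, had 473 ± 76 in knockout and 388 ± 43.6 in wild type (0.28). Stk38l, a relative of the LATS kinases, had 242 ± 17.9 in knockout and 202 ± 35 in wild type (0.27), and its 3′ UTR has a miR-205 seed match. Wwc1 (-0.11), Taok1 (-0.06), Wwc2 (0.06) and Stk38 (0.02) of this list also have one, and Dchs1 and Lats2 have none. Of all tested genes with a 3′ UTR, 12.4% had a match. The limma-trend adjusted p was 0.554 for Lats2 and 0.592 for Stk38l. Without knockout replicates 1 and 2 the log2 difference was 0.27 for Dchs1, 0.12 for Lats2 and 0.19 for Stk38l, and that of Lats2 was 0.18 without knockout replicate 2 alone.

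Of 23 YAP/TEAD response genes, drawn mostly from a signature defined in human cancers, 22 were tested and Ankrd1 was too low. Without miR-205, 13 had higher and 9 lower values, and the median log2 difference was 0.16, against 0.01 over all tested genes. Without knockout replicates 1 and 2, 14 had higher and 8 lower values, and the median was 0.07, against 0.02 over all tested genes. With the mesenchyme score as a covariate the median was also 0.07, and with the endothelium score 0.06. Tgfb2 and Igfbp3, named after their values were seen, were highest in those 2 libraries, where the mesenchyme and endothelial sums were also highest. Tgfb2, a secreted growth factor, had 649, 618, 353 and 351 normalized counts in knockout, against 383, 386 and 382 in wild type. Igfbp3, which binds insulin-like growth factors, had 778, 1095, 225 and 426 in knockout, against 345, 181 and 428 in wild type. Ccdc80, Foxf2, Lats2 and Rbms3 of the list were also highest in knockout replicates 1 and 2. Other genes of the list, F3, Crim1, Ptpn14 and Ajuba, were lowest there. F3 had 380, 380, 634 and 546 in knockout, against 533, 606 and 676 in wild type. The part of cell composition in the list's median was not tested. By limma-trend 0 of the list were called, against 0.0% of all tested genes. An unadjusted p under 0.05 was reached by 3 with higher values and 0 with lower values, where the shares over all tested genes were 5.44% and 4.34%. The list shares Lats2, Ptpn14 and Ajuba with the regulators.

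Those 3 genes were Ccdc80, Foxf2 and Dock5. Ccdc80, a secreted matrix protein, had 230, 270, 198 and 206 normalized counts in knockout, against 125, 129 and 144 in wild type. Its groups were well apart, with a log2 difference of 0.76 (SE 0.18, limma-trend adjusted p 0.312) and 0.61 without knockout replicates 1 and 2. The authors' deposited table lists Ccdc80 with an adjusted p of 0.00706, and DESeq2 on recovered reads gave 0.0384. Foxf2, a forkhead factor of mesenchyme, had 42.9, 95.6, 24.8 and 19.3 in knockout, against 17.1, 9.46 and 11.2 in wild type, a log2 difference of 1.54 that was 0.79 without knockout replicates 1 and 2. Dock5, an activator of Rac, had 69.5 ± 13 normalized counts in knockout and 36.9 ± 20.9 in wild type (log2 difference 1.08), and has a miR-205 seed match in its 3′ UTR. Axl (0.21) and Birc5 (-0.04) of the list also have one, and Ccdc80 and Foxf2 have none. The difference of Dock5 was 0.50 without wild type replicate 3, which had 13.8 normalized counts, against 42.7 and 54.3 in the other wild type libraries. The limma-trend adjusted p was 0.449 for Foxf2 and 0.479 for Dock5. Without knockout replicates 1 and 2, 1 gene of the list, Ccdc80, had an unadjusted limma-trend p under 0.05.

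Cyr61, the closest relative of Ctgf, had 363, 228, 192 and 237 normalized counts in knockout, against 218, 190 and 268 in wild type. The groups overlapped. Its log2 difference of 0.15 was -0.04 without knockout replicate 1. Of the 5 other CCN genes 3 were tested, all with higher means, Wisp1 with 313 ± 100 in knockout and 221 ± 67.2 in wild type, and Nov with 69.7 ± 7.16 in knockout and 65.7 ± 38.4 in wild type. Without wild type replicate 2 the log2 difference of Nov, 0.32, was -0.33. That of Wisp1, 0.50, was 0.25 without wild type replicate 3, 0.30 without knockout replicate 1, 0.19 without knockout replicates 1 and 2 and 0.02 with the mesenchyme score. The limma-trend adjusted p of these 3 was 0.848 for Cyr61, 0.836 for Nov and 0.562 for Wisp1.

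The vestigial-like proteins compete with YAP for TEAD factors. Of the 4 genes, all tested, 2 had higher and 2 lower values and 0 passed, against 0.0% of all tested genes. Vgll4, the main antagonist of YAP, had 1139 ± 117 normalized counts in knockout and 1221 ± 62.5 in wild type (log2 difference -0.11, limma-trend adjusted p 0.731). Vgll3 had 487 ± 185 in knockout and 342 ± 65.2 in wild type (0.44), with a miR-205 seed match in its 3′ UTR, and Vgll1 had 66.4 ± 29.1 in knockout and 69 ± 7.69 in wild type (-0.16). Vgll1, Vgll2 and Vgll4 have no match. The difference of Vgll3 was 0.24 without knockout replicate 1, 0.72 without knockout replicate 4 and 0.28 without wild type replicate 2. It was 0.16 when knockout replicates 1 and 2 were both left out. The difference of Vgll4 was -0.04 without knockout replicate 4. The direction of Vgll1 turned without knockout replicate 1 (0.05) and without knockout replicate 2.

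**Figure D5:**
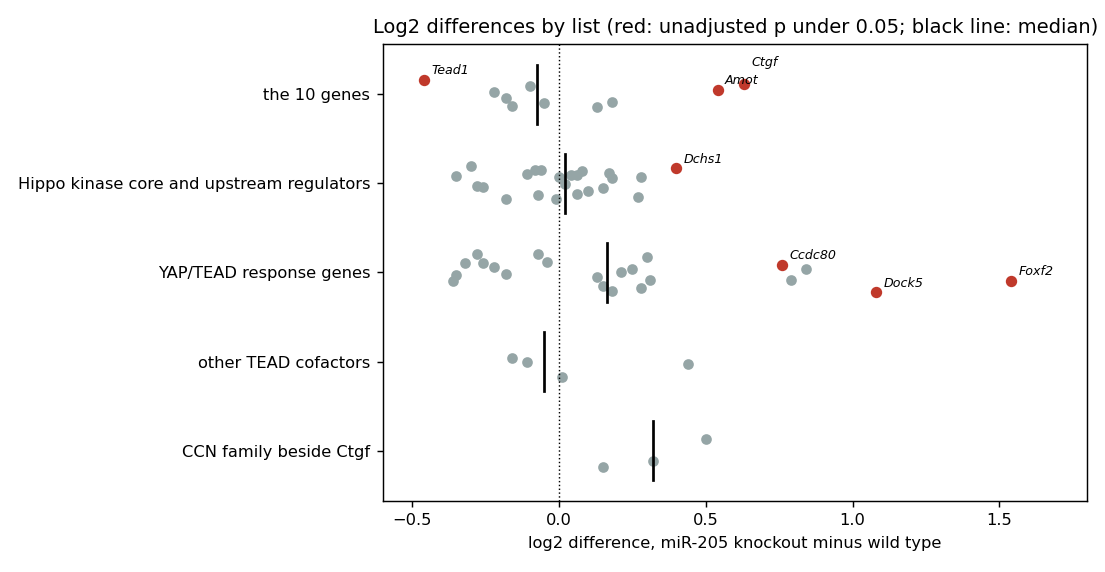
Log2 differences, miR-205 knockout minus wild type (x axis), of the 10 genes and of 4 lists of pathway genes; each point is a gene, red with its name where the unadjusted limma-trend p was under 0.05, and black lines are medians. Tead1 is the only red point below 0, and the median of the response genes (0.16) lies above that of the kinases and regulators (0.02).

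Genes whose values over the 7 libraries were most like a member's were found by the root mean square difference of log2 values after removing each gene's mean. For Amot these were Rapgef2 (0.065), Csrp2 (0.090) and Cnbd2 (0.091), and 37 genes lay under 0.15. Rapgef2 had 308 ± 50.4 normalized counts in knockout and 202 ± 9.92 in wild type. For Ctgf they were Loxl3 (0.107), Trpt1 (0.137) and St6galnac4 (0.144), with 4 genes under 0.15. For Yap1 they were Fahd2a (0.033), Mrps35 (0.045) and Cd320 (0.048), among 1655 genes under 0.15. Within the group, the gene nearest to Amot was Wwtr1 (0.217), followed by Ctgf (0.241), and the nearest to Ctgf was Amot.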

How the data were processed

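RNA was measured by sequencing of 7 laser-captured libraries. Per the series' design text and the submitters' processing notes, reads were mapped with TopHat2 2.0.9 to GRCm38, counted per Ensembl gene with HTSeq in intersection-strict mode and tested with DESeq2. The authors evaluated only genes above 10 normalized counts in all samples. The deposited signal values are counts divided by 1 size factor per library. The authors' log2 fold changes and p-values are credited to their deposited table. The smallest value above 0 in a library was taken as 1 read, and 100% of values above 0 were then whole within 0.01 read.

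The test was limma-trend 3.58.1 (R 4.3.3, robust) on log2(normalized count + 1) over the 15029 genes whose mean reached 10. Its p-values were adjusted by Benjamini-Hochberg and called under 0.1. This scale understates changes of weakly expressed genes. The fit was tested on simulated data. edgeR 4.0.16 and DESeq2 1.42.0 were run on recovered reads as alternatives. From each gene list, called genes or otherwise the 3 with the smallest p are named, and from marker lists the sums. Members, lists and rules were chosen with earlier results of these data known. Lengths are unions of annotated exons.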

Additional observations from a re-analysis of the deposited data

How the results depend on the processing

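Over 21 alternatives, 197 of 210 log2 differences of the 10 genes kept their direction, 13 reversed it and 0 passed an adjusted p of 0.1. Leaving out 1 library at a time gave -0.435 to 0.113 for Tead4 (0.099 without knockout replicate 1) and -0.115 to 0.009 for Tead2. Tead4 was 0.099 with the replicate block, and without both knockout libraries 1 and 2 Tead4 was 0.197 and Wwtr1 -0.083. No wild type library is numbered 1, so log2 differences with the replicate block equal those without knockout replicate 1. The block is thus not a separate check of direction. With marker scores as covariates, chosen after seeing the data, Tead4 was 0.118 (ectoderm), 0.279 (mesenchyme) and 0.181 (endothelium), Wwtr1 -0.021, -0.162 and -0.142 in that order, and Yap1 0.039 (ectoderm). The number of the 10 with an unadjusted p under 0.05, 3 in the report, was between 1 and 3 when 1 library was left out (1, Amot, without knockout replicate 2 and without wild type replicate 4). It was 1 without both knockout libraries 1 and 2 and with the ectoderm, mesenchyme or endothelium score (Tead1 each time), and 1 with the neuronal score (Amotl2, p 0.0103 by limma-trend). The number of all tested genes called was 0 by limma-trend and by edgeR (1469 and 1418 at an unadjusted p under 0.05). It was 223 by DESeq2, 1 of them a response gene (Ccdc80), 2 with values above 10 in every library, 3 with the replicate block, 3 without both knockout libraries 1 and 2, and 0 to 83 when 1 library was left out (83 without wild type replicate 2, 6 without knockout replicate 2 and 2 without knockout replicate 1). Vgll1 was 0.054 with the replicate block, -0.377 to 0.054 with 1 library left out (0.003 without knockout replicate 2), 0.397 without both knockout libraries, and 0.457, 0.469, 0.439 and 0.205 with the ectoderm, mesenchyme, endothelium and neuronal scores. Cyr61 was -0.035 with the replicate block, -0.035 to 0.280 with 1 library left out, -0.066 without both knockout libraries and -0.098, -0.221, -0.052 and -0.029 with the 4 scores, and Nov was -0.328 to 0.694 with 1 library left out. The cause of these changes was not tested. Deviations of same-numbered libraries correlated at 0.10, 0.11 and -0.01, and not every library correlated best with its own number. These values do not show a pairing by number, but with so few libraries they cannot exclude one.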

Other observations

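The spread between wild type libraries was smaller than counting error for Tead3, with a coefficient of variation of 1.17% against 6.12% from counting alone, so its wild type SD of 3.08 normalized counts understates the error of a single library. For Amot the spread was 17.4% in knockout and 7% in wild type, against 5.49% and 6.58% from counting in that order, and for Ctgf it was 43.1% in knockout and 13.6% in wild type, against 6.13% and 7.74%.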
